A study of Caenorhabditis elegans with 9 samples.

Results

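The hedgehog-related and patched-related genes of *C. elegans* were taken as all genes whose WormBase symbol begins with *grd*, *grl*, *wrt*, *hog*, *ptr* or *ptc* followed by a number, together with *qua-1*. The rule used names and no measured value, and it found 85 of the 46739 genes in the count table. The secreted classes made up 59 of them, with 16 groundhog (*grd*), 31 ground-like (*grl*) and 10 warthog (*wrt*) genes, *hog-1* and quahog (*qua-1*). The receptor classes made up the other 26, with 2 patched (*ptc*) and 24 patched-related (*ptr*) genes.

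In flies and vertebrates, Hedgehog is a secreted protein that its own C-terminal part, the Hog domain, cuts and joins to cholesterol, and Patched is its membrane receptor, which has a sterol-sensing domain. *C. elegans* has no clear Hedgehog and no Smoothened, the signal transducer below Patched, but it carries expanded families of secreted proteins with nematode-specific N-terminal domains, some of which end in a Hog domain, and expanded families of Patched-like proteins. Many of these genes are active in the epidermis and its seam cells, their transcripts rise and fall with each molting cycle, and members of both classes are needed for molting, cuticle formation and traffic to the apical surface.

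All 9 libraries are taken here to come from N2 wild-type worms put on RNAi bacteria as L1 larvae and collected as L4 larvae. The study states this for the N2 worms of its qRT-PCR, and its RNA sequencing methods name no strain or stage. In 3 libraries the worms were fed *cco-1* RNAi, which targets a subunit of complex IV of the mitochondrial respiratory chain, in 3 they were fed *his-3* RNAi, which targets histone H2A genes, and in 3 they were fed bacteria with the empty vector (EV). The study asked how mitochondrial stress and histone stress change gene expression. No source used here says whether the 3 libraries of a group came from separate cultures, so the p-values measure the spread between these libraries, which may be technical.

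The libraries held from 25129763 to 32017517 gene-assigned reads. The target of *cco-1* RNAi, which is called *cox-5B* in the annotation, averaged 4713 ± 209 normalized reads with *cco-1* RNAi, 9435 ± 187 with *his-3* RNAi and 12649 ± 125 in EV (SD, n = 3 each). *his-3* averaged 17.7 reads with *cco-1* RNAi, 109 with *his-3* RNAi and 175 in EV, so that the *his-3* target was lowest in the libraries fed *cco-1* RNAi. Reads shared with near-identical H2A genes, which were left uncounted, and the poly(A) selection limit this second value. Normalized reads are counts scaled by TMM to a library of average size.

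The members fell into a tested and an untested part by depth. A gene was tested when more than 3 libraries held more than 5 of its reads, which kept 71 members, 45 of the secreted classes and all 26 receptors. The 14 untested members were *grd-4*, *grd-8*, *wrt-7* and 11 *grl* genes, each with at most 40 reads over the 9 libraries. *grl-28* and *grl-30* passed through libraries other than those of *cco-1* RNAi, where they had 0 reads. *grl-17* passed with no EV library above 5 reads. For these 3 the filter thus favoured a difference from the group with the fewest reads, and the counts below are descriptions of the tested members.

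With *cco-1* RNAi most of the tested members were below EV. A member was called when its adjusted p was under 0.05 (edgeR's quasi-likelihood test, Benjamini-Hochberg over 16817 genes). In all 65 members were called, where 70.8% of all genes tested were. Of these, 17 were higher (background 34.9%) and 48, or 67.6% of the tested members, were lower (background 35.9%). The other 6 did not pass. At the larger fold change used in the study, a log2 fold change of at least 2, 8 members were higher (background 4.31%) and 32 were lower (background 6.61%). The 3 libraries of each group did not overlap for 17 members above and 47 below EV, where 75.7% of all genes did not overlap in one direction or the other.

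The median change was larger in the secreted classes. Of 45 tested secreted members 10 rose and 32 fell with *cco-1* RNAi, 5 and 23 of them past the larger fold change, with a median log2 fold change of −2.26. With *grl-28* and *grl-30* set to the bound that 3 reads per library allow, this median was −2.0. Of 26 receptors 7 rose and 16 fell, 3 and 9 of them past the larger fold change, with a median of −0.78, while the median over all genes tested was 0.006. Each family with several tested members held genes in both directions: 4 rose and 9 fell of 14 *grd* genes, 4 and 14 of 20 *grl* genes, 2 and 7 of 9 *wrt* genes, and 6 and 15 of 24 *ptr* genes. The difference between the classes was not tested.

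**Figure D1:**
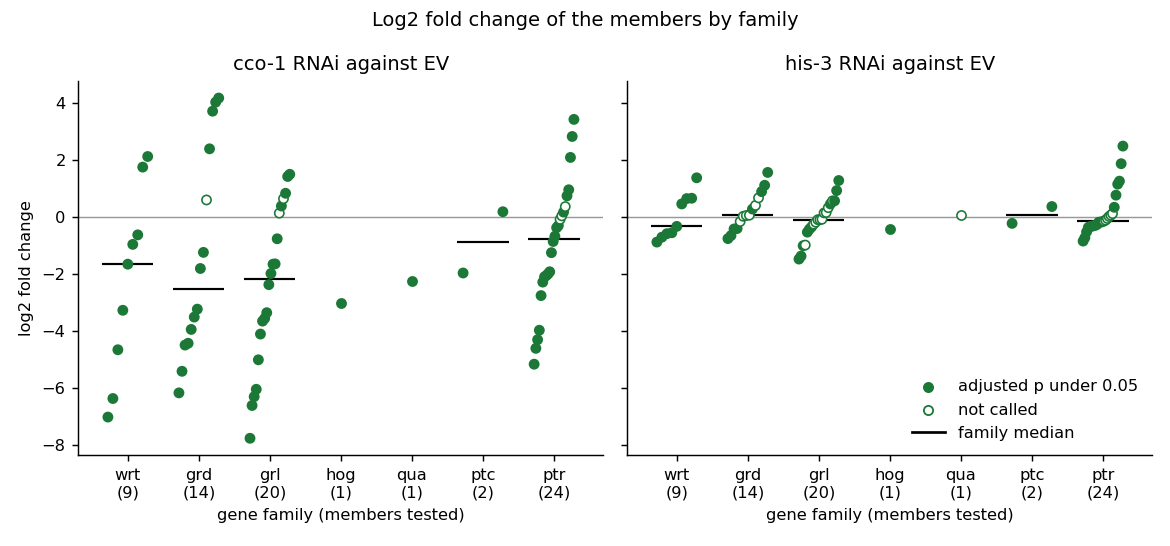
Log2 fold change of each tested member against EV, by gene family, for *cco-1* RNAi (left) and *his-3* RNAi (right). Each point is a gene, filled at an adjusted p under 0.05, and the bar is the family median. With *cco-1* RNAi every family with more than 2 tested genes spans both directions and reaches below −5, while with *his-3* RNAi the lowest point is −1.49; the *his-3* points stand at TMM scaling and shift up by 0.22 or 0.29 with other scalings, which turns the medians of both classes positive. *grl-28* and *grl-30*, with 0 reads under *cco-1* RNAi, stand at fitted values that depend on the prior count.

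RNA was taken from whole worms, so that fewer cells of a type and less RNA per cell cannot be told apart. Markers of other tissues and stages moved as well. The 6 adult and vitellogenesis genes of the marker list summed to between 6667 and 8604 normalized reads with *cco-1* RNAi and between 21237 and 23942 with *his-3* RNAi, against 78395 to 91336 in EV. All 6 were lower in each treatment by edgeR, and 5 were lower with *his-3* RNAi by DESeq2. The 8 sperm genes summed to between 5649 and 6164 reads with *cco-1* RNAi, against 9005 to 9576 in EV, with all 8 lower. With *his-3* RNAi they summed to between 9654 and 10748 reads. At TMM scaling 3 of them were higher with *his-3* RNAi and 0 lower by edgeR, and 1 was higher by DESeq2. By library size, and also by *act-1* and *pmp-3*, all 8 were higher with *his-3* RNAi. The 10 epidermis and seam genes, the tissue in which many members are active, summed to between 6936 and 7656 reads with *cco-1* RNAi, 6185 to 7594 with *his-3* RNAi and 4653 to 4852 in EV, with 6 higher and 1 (*lin-26*) lower under *cco-1* RNAi. Without *dpy-7*, a collagen that averaged 3589, 2724 and 1381 reads in these groups and was singled out after its values were seen, the other 9 summed to between 3711 and 3787 reads with *cco-1* RNAi, 3857 to 4611 with *his-3* RNAi and 3240 to 3449 in EV. Under *his-3* RNAi 8 of the 9 epidermis and seam genes that were tested were higher by edgeR and 7 by DESeq2, and 0 were lower by edgeR, limma-voom or DESeq2, also at an unadjusted p under 0.05. The 8 intestine genes summed to between 208218 and 211588 reads with *cco-1* RNAi, 70112 to 85321 with *his-3* RNAi and 107337 to 118144 in EV. With *cco-1* RNAi 5 of them were higher and 3 lower, and with *his-3* RNAi all 8 were lower at TMM scaling and 5 by the study's reference genes, *act-1* and *pmp-3*. At TMM scaling 4 of the 6 body wall muscle genes were lower in each treatment and 6 of the 8 neuron genes were higher in each by edgeR. With *his-3* RNAi 4 neuron genes were higher by DESeq2 and 8 by library size, and 3 muscle genes were lower by *act-1* and *pmp-3*. Of the 8 germline genes 5 were lower in each treatment at TMM scaling, but by *act-1* and *pmp-3* 2 were lower and 2 higher with *cco-1* RNAi and 1 was lower and 4 higher with *his-3* RNAi. No listed marker of these types was at 0 in all libraries, and *ceh-16*, a seam cell regulator, was too low to be tested. The part of these tissues and stages in the results on the members was not tested.

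The 3 warthog genes furthest below EV with *cco-1* RNAi, *wrt-4*, *wrt-8* and *wrt-6*, encode proteins that end in a Hog domain. *wrt-4*, on chromosome X at 15752257 to 15757269 (WBcel235), had 216, 75.9 and 158 normalized reads under *cco-1* RNAi, 12943, 13258 and 12528 under *his-3* RNAi, and 19700, 19550 and 19432 in EV. The 3 groups did not overlap, and the *cco-1* libraries lay 131-fold below EV, at a log2 fold change of −7.03 (SE 0.17, adjusted p = 1.42e-15). With *his-3* RNAi the change was −0.60 (SE 0.12, adjusted p = 0.000458), a call that DESeq2 did not make.

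*wrt-8* held 9.21, 12.0 and 3.41 reads under *cco-1* RNAi, 425, 446 and 419 under *his-3* RNAi, and 729, 696 and 704 in EV. It was close to 0 in the *cco-1* libraries, at a log2 fold change of −6.38 (SE 0.15, adjusted p = 6.86e-16), and it was also lower with *his-3* RNAi (−0.72, SE 0.07). *wrt-6*, on chromosome X, had 611, 329 and 472 reads under *cco-1* RNAi, 7869, 8243 and 8171 under *his-3* RNAi, and 11571, 12582 and 11801 in EV. It fell by 4.67 on the log2 scale with *cco-1* RNAi (SE 0.13, adjusted p = 6.43e-15), while the *his-3* libraries were lower (−0.57, SE 0.10).

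*wrt-1*, the fourth gene of this kind that was tested, went below EV in one treatment and above it in the other. It had 1028, 529 and 780 reads under *cco-1* RNAi, 3482, 3156 and 3470 under *his-3* RNAi, and 2573, 2354 and 2490 in EV, and no 2 groups overlapped. The log2 fold change against EV was −1.67 with *cco-1* RNAi (SE 0.14, adjusted p = 1.25e-08) and 0.45 with *his-3* RNAi (SE 0.12, adjusted p = 0.00577), a call that DESeq2 did not make.

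The warthog genes without a Hog domain went both ways. *wrt-10*, on chromosome II at 7533262 to 7534563, had 4497, 4070 and 4597 reads under *cco-1* RNAi, 2229, 2966 and 2642 under *his-3* RNAi, and 1062, 925 and 1058 in EV. All libraries of both treatments lay above EV, with log2 fold changes of 2.11 (SE 0.09, adjusted p = 1.15e-12) under *cco-1* RNAi and 1.36 (SE 0.09, adjusted p = 1.14e-09) under *his-3* RNAi. *wrt-3* had 414, 396 and 437 reads under *cco-1* RNAi, 194, 190 and 200 under *his-3* RNAi, and 132, 127 and 115 in EV. On the log2 scale it rose by 1.74 (SE 0.08) under *cco-1* RNAi and by 0.65 (SE 0.09) under *his-3* RNAi, but 41.1% of its exon length overlaps a pseudogene on the same strand, so its reads are uncertain.

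*wrt-2* had 844, 526 and 659 reads under *cco-1* RNAi, 1423, 1745 and 1734 under *his-3* RNAi, and 1042, 1070 and 1049 in EV. As with *wrt-1*, the *cco-1* libraries were below EV (−0.64, SE 0.12, adjusted p = 0.000147) and the *his-3* libraries above it (0.63, SE 0.11, adjusted p = 0.000119). *wrt-9*, with 130, 82.9 and 118 reads under *cco-1* RNAi, 735, 964 and 840 under *his-3* RNAi, and 1044, 1093 and 1083 in EV, fell by 3.29 with *cco-1* RNAi (SE 0.12, adjusted p = 3.1e-13). Its change with *his-3* RNAi was −0.34 (SE 0.09).

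*wrt-5*, which is needed for embryonic morphogenesis, was the only tested warthog gene for which the difference between the treatments was not called. It had 164, 170 and 169 reads under *cco-1* RNAi, 176, 163 and 193 under *his-3* RNAi, and 322, 342 and 323 in EV. The treatments overlapped each other and lay below EV, by −0.97 (SE 0.08, adjusted p = 2.43e-08) and −0.89 (SE 0.08, adjusted p = 1.11e-07), and the difference between them was −0.08 (SE 0.09, adjusted p = 0.449). *wrt-7* had 2.05, 3.99 and 2.27 reads under *cco-1* RNAi, 2.81, 0.92 and 2.83 under *his-3* RNAi, and 8.29, 4.42 and 12.3 in EV, too few to be tested.

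The single-gene secreted families both fell with *cco-1* RNAi. *hog-1*, whose protein has a Hog domain and none of the N-terminal domains of the other families, had 169, 124 and 137 reads under *cco-1* RNAi, 897, 834 and 882 under *his-3* RNAi, and 1211, 1156 and 1165 in EV. It was 8.21-fold lower with *cco-1* RNAi (log2 fold change −3.04, SE 0.08, adjusted p = 4.77e-15) and at −0.43 with *his-3* RNAi (SE 0.06), and the groups did not overlap. *qua-1*, which is required for molting, had 2330, 1478 and 1923 reads under *cco-1* RNAi, 9012, 9806 and 9456 under *his-3* RNAi, and 8904, 9366 and 9158 in EV. It fell by 2.26 with *cco-1* RNAi (SE 0.11, adjusted p = 6.53e-12), while the *his-3* libraries overlapped EV (0.04, SE 0.10, adjusted p = 0.73).

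The groundhog genes split into members far below and members far above EV. *grd-11*, which encodes a Hog domain, had 8.19, 0.998 and 1.14 reads under *cco-1* RNAi, 239, 303 and 254 under *his-3* RNAi, and 275, 273 and 243 in EV. It was at about 1 read in 2 of the 3 *cco-1* libraries (−6.18, SE 0.28, adjusted p = 3.62e-12), and the *his-3* libraries overlapped EV (0.01, SE 0.12, adjusted p = 0.944). The change with *cco-1* RNAi was −7.79 without *cco-1* replicate 1, and over all alternative settings it lay between −7.79 and −5.59. The other Hog-domain groundhog genes, *grd-1* and *grd-2*, were also lower with *cco-1* RNAi, by −1.82 (SE 0.06) and −4.44 on the log2 scale, and *grd-1* was higher with *his-3* RNAi (0.27, SE 0.05, adjusted p = 0.000301).

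*grd-14*, on chromosome X, and *grd-5*, on chromosome V, had the most reads of the family. *grd-14* had 204, 190 and 199 reads under *cco-1* RNAi, 5771, 5280 and 5019 under *his-3* RNAi, and 8311, 8656 and 8499 in EV. It fell by 5.43 with *cco-1* RNAi (SE 0.07, adjusted p = 9.75e-19), while the *his-3* libraries were lower (−0.66, SE 0.05, adjusted p = 6.69e-09). *grd-5* had 1126, 1023 and 1023 reads under *cco-1* RNAi, 7553, 7997 and 6979 under *his-3* RNAi, and 10312, 9720 and 10068 in EV, a change of −3.25 (SE 0.06) under *cco-1* RNAi and −0.42 (SE 0.05) under *his-3* RNAi. For both genes the 3 groups stood apart.

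**Figure D2:**
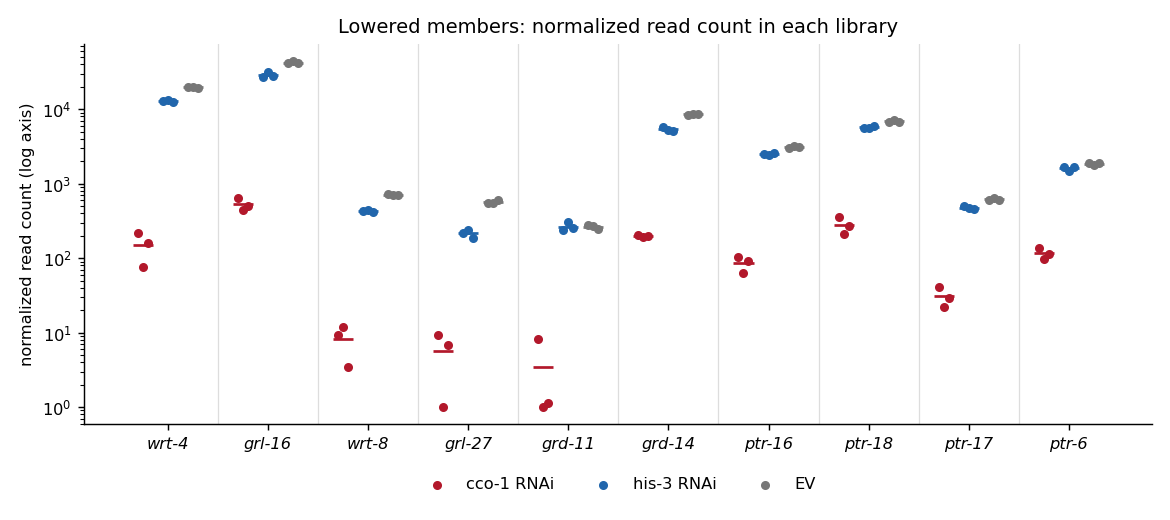
Normalized read count (log axis) of 10 members that were lower with *cco-1* RNAi, in each of the 3 libraries of *cco-1* RNAi, *his-3* RNAi and EV, with bars at the group means. The *cco-1* libraries lie below all others for every gene shown, from 3.44 reads on average for *grd-11* to 528 for *grl-16*, while the *his-3* libraries lie near EV or below it at TMM scaling.

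*grd-13*, *grd-3* and *grd-10*, which follow each other on the same strand of chromosome IV between 3438312 and 3441841 with gaps of 147 and 601 bases, were the most strongly raised members. *grd-13* had 794, 903 and 822 reads under *cco-1* RNAi, 107, 162 and 144 under *his-3* RNAi, and 44.6, 50.8 and 45.4 in EV. It rose 17.9-fold with *cco-1* RNAi (log2 fold change 4.16, SE 0.13, adjusted p = 2.59e-14) and also rose with *his-3* RNAi (1.55, SE 0.16, adjusted p = 5.78e-07). Its groups stood in the order *cco-1* RNAi, *his-3* RNAi, EV, with no overlap.

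*grd-10* had 1225, 1279 and 1271 reads under *cco-1* RNAi, 148, 169 and 182 under *his-3* RNAi, and 88.1, 74.0 and 71.0 in EV, which gave log2 fold changes of 4.02 (SE 0.09) and 1.10 (SE 0.11). *grd-3*, singled out after its values were seen because it lies between the other two, had 1929, 2005 and 1933 reads under *cco-1* RNAi, 223, 274 and 332 under *his-3* RNAi, and 173, 131 and 146 in EV. Its changes were 3.70 (SE 0.11, adjusted p = 9.81e-15) and 0.88 (SE 0.13, adjusted p = 2.11e-05). For both genes no library of one group reached the range of another. The fourth raised groundhog gene, *grd-7*, averaged 28.9 reads with *cco-1* RNAi, 8.70 with *his-3* RNAi and 5.56 in EV, and rose by 2.38 in the *cco-1* libraries.

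**Figure D3:**
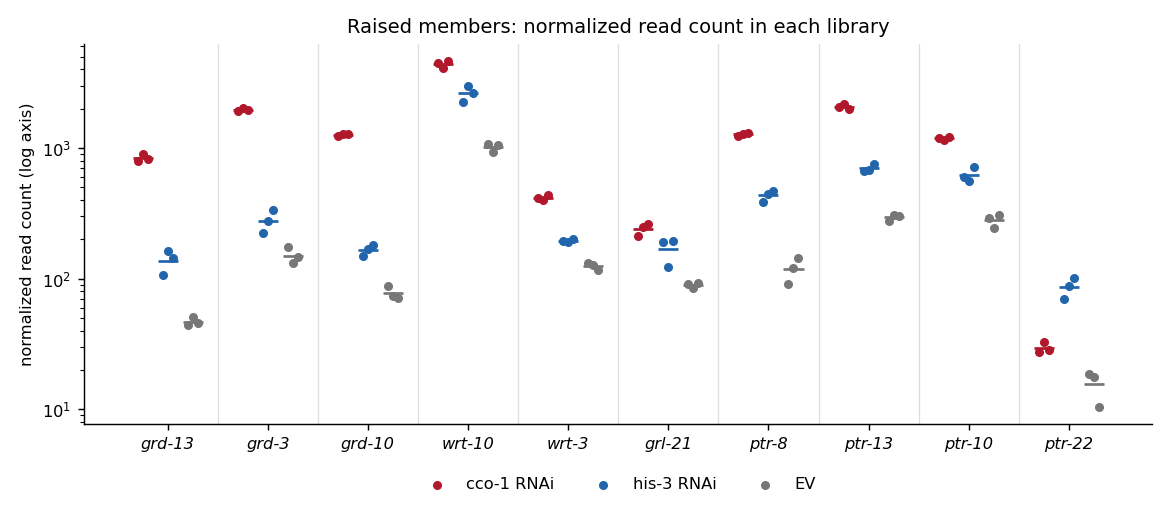
Normalized read count (log axis) of 10 members that were higher with both treatments than in EV, in each library of *cco-1* RNAi, *his-3* RNAi and EV, with bars at the group means. For the first 9 genes the mean with *cco-1* RNAi is the highest and EV the lowest, while *ptr-22* averages 29.6 reads with *cco-1* RNAi, 86.2 with *his-3* RNAi and 15.6 in EV.

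The ground-like family, the largest of the secreted ones, held the member with the most reads. *grl-16*, on chromosome I at 572173 to 575120, had 632, 445 and 505 reads under *cco-1* RNAi, 27246, 31845 and 27492 under *his-3* RNAi, and 41147, 43961 and 41131 in EV. It was 79.7-fold lower with *cco-1* RNAi (log2 fold change −6.32, SE 0.11, adjusted p = 2.47e-17) and lower with *his-3* RNAi by −0.54 (SE 0.08, adjusted p = 3.76e-05). The neighbouring *ptr-21*, 15463 bases away on the other strand, stood at 0.16 with *cco-1* RNAi.

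*grl-7* had 689, 243 and 463 reads under *cco-1* RNAi, 7036, 8001 and 7671 under *his-3* RNAi, and 8352, 7953 and 7899 in EV. It fell by 4.12 with *cco-1* RNAi (SE 0.20, adjusted p = 8.52e-12) and the *his-3* libraries overlapped EV (−0.09, SE 0.16, adjusted p = 0.652, above 0 with 2 other scalings). *grl-27* had 9.21, 0.998 and 6.81 reads under *cco-1* RNAi, 220, 242 and 187 under *his-3* RNAi, and 543, 547 and 604 in EV. It was lower in both treatments, by −6.63 (SE 0.21, adjusted p = 4.57e-14) and −1.38 (SE 0.11, adjusted p = 1.38e-08), with no overlap between groups.

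*grl-22* had 33.8, 32.9 and 27.2 reads under *cco-1* RNAi, 195, 181 and 179 under *his-3* RNAi, and 354, 407 and 368 in EV, with changes of −3.57 (SE 0.12) and −1.02 (SE 0.08). *grl-30*, singled out after its values were seen, had 0 reads in all 3 *cco-1* libraries, 9.37, 11 and 8.50 with *his-3* RNAi, and 20.7, 26.5 and 34.1 in EV. Against a floor of 3 reads per library it was at least 8.59-fold lower with *cco-1* RNAi than in EV, and *grl-28*, also at 0, at least 2.62-fold lower. Both lie with *grl-29* and *grl-31*, which were too low to be tested, and *grl-27* in a stretch of chromosome V.

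With *cco-1* RNAi 4 *grl* genes were raised. *grl-21*, reported to act with *ptr-24* in fat storage, had 211, 247 and 260 reads under *cco-1* RNAi, 192, 123 and 194 under *his-3* RNAi, and 91.2, 85.1 and 92.8 in EV. All treated libraries lay above EV, by 1.41 (SE 0.16, adjusted p = 4.74e-07) and 0.91 (SE 0.16, adjusted p = 0.000142). *grl-4* averaged 827 reads with *cco-1* RNAi, 698 with *his-3* RNAi and 637 in EV and rose by 0.37 with *cco-1* RNAi. *grl-3* averaged 22.7 reads with *cco-1* RNAi and *grl-17* 9.79, and 24.5% of the exon length of *grl-17* overlaps genes on the other strand.

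The 2 patched genes differed from each other. *ptc-3*, an essential gene of the epidermis and other tissues, had 3006, 2624 and 2757 reads under *cco-1* RNAi, 8552, 9778 and 9697 under *his-3* RNAi, and 10780, 11485 and 10764 in EV. It was 3.94-fold lower with *cco-1* RNAi (log2 fold change −1.98, SE 0.06, adjusted p = 3.64e-14), and its change with *his-3* RNAi (−0.24, SE 0.06, adjusted p = 0.00293) was lost with library size alone and above 0 when scaled to *act-1* and *pmp-3*. *ptc-1*, which is needed for germline cytokinesis, had 6593, 6322 and 6587 reads under *cco-1* RNAi, 7341, 7363 and 7427 under *his-3* RNAi, and 5661, 6005 and 5644 in EV. It was higher in both treatments, without overlap, by 0.17 (SE 0.04, adjusted p = 0.00188) and 0.35 (SE 0.04, adjusted p = 2.64e-06).

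Of the patched-related genes, the furthest below EV were *ptr-16*, *ptr-18*, *ptr-17* and *ptr-6*. *ptr-16* had 102, 62.9 and 91.9 reads under *cco-1* RNAi, 2482, 2407 and 2548 under *his-3* RNAi, and 3026, 3189 and 3067 in EV, a change of −5.18 with *cco-1* RNAi (SE 0.09, adjusted p = 2.01e-17). *ptr-18*, which limits GRL-7 in the epidermis of starved larvae, had 359, 212 and 269 reads under *cco-1* RNAi, 5624, 5566 and 5874 under *his-3* RNAi, and 6658, 7195 and 6811 in EV. It fell by 4.62 with *cco-1* RNAi (SE 0.11, adjusted p = 5.64e-16).

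*ptr-17* had 40.9, 21.96 and 29.5 reads under *cco-1* RNAi, 496, 470 and 456 under *his-3* RNAi, and 601, 644 and 604 in EV (−4.32 with *cco-1* RNAi, SE 0.12). *ptr-6* had 137, 97.8 and 115 reads under *cco-1* RNAi, 1684, 1477 and 1692 under *his-3* RNAi, and 1882, 1767 and 1891 in EV (−3.99 with *cco-1* RNAi, SE 0.09). With *his-3* RNAi the 4 genes were at −0.32, −0.28, −0.38 and −0.19, all called at TMM scaling, and each of these calls was lost with library size alone, where *ptr-6* stood at 0.028, and with scaling to *act-1* and *pmp-3*, where *ptr-6* and *ptr-18* stood above 0. *ptr-6* was also no longer called without *his-3* replicate 2 (−0.13) or EV replicate 3 (−0.17).

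*ptr-8*, *ptr-13* and *ptr-10* were the *ptr* genes furthest above EV with *cco-1* RNAi. *ptr-8* had 1231, 1282 and 1305 reads under *cco-1* RNAi, 388, 442 and 470 under *his-3* RNAi, and 91.2, 120 and 145 in EV, with changes of 3.41 (SE 0.11, adjusted p = 3.18e-14) and 1.86 (SE 0.12, adjusted p = 9.99e-10). *ptr-13* had 2067, 2148 and 1992 reads under *cco-1* RNAi, 669, 673 and 753 under *his-3* RNAi, and 277, 305 and 302 in EV, with changes of 2.81 (SE 0.06) and 1.25 (SE 0.07). *ptr-10*, which marks glia that ensheath sensory endings, had 1199, 1157 and 1213 reads under *cco-1* RNAi, 594, 562 and 708 under *his-3* RNAi, and 289, 245 and 308 in EV, with changes of 2.08 (SE 0.09) and 1.14 (SE 0.09). For all 3 genes every *cco-1* library exceeded every *his-3* library, and these exceeded every EV library. The 8 glial markers of the list, *ptr-10* among them, summed to between 4772 and 4904 reads with *cco-1* RNAi, 4002 to 4559 with *his-3* RNAi and 3507 to 3724 in EV. Under *cco-1* RNAi 5 were higher and 1 (*lin-26*, also in the epidermis list) was lower. *ptr-10* itself averaged 1190, 621 and 281 of these reads and is among the genes called higher in both treatments. The sums are thus not independent of it, and none was made without it. Under *his-3* RNAi 5 were higher by edgeR and 4 by DESeq2, and 0 were lower by edgeR, limma-voom or DESeq2, also at an unadjusted p under 0.05.

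*ptr-22*, chosen after its values were seen, was the only member past a log2 fold change of 2 with *his-3* RNAi (2.48, mean 86.2 reads, against 15.6 in EV), and it rose by 0.94 with *cco-1* RNAi (mean 29.6 reads). *ptr-21* was higher than EV with *cco-1* RNAi and lower with *his-3* RNAi. It had 3519, 3603 and 3413 reads under *cco-1* RNAi, 1595, 1826 and 1786 under *his-3* RNAi, and 2940, 3389 and 3109 in EV. The *his-3* libraries were below EV without overlap (−0.86, SE 0.06, adjusted p = 2.56e-09), while the *cco-1* change of 0.16 (SE 0.06, adjusted p = 0.0191) was no longer called without *cco-1* replicate 2 (0.14), EV replicate 1 (0.11) or EV replicate 3 (0.15). *ptr-4*, a gene of the apical extracellular matrix and the *ptr* gene with the second most reads in EV, had 4197, 3762 and 4142 reads under *cco-1* RNAi, 4901, 5303 and 5382 under *his-3* RNAi, and 4949, 5080 and 5023 in EV, a change of only −0.32 with *cco-1* RNAi (SE 0.05, adjusted p = 2.96e-05).

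Summed over their class, the secreted genes stood further below EV than the receptors with *cco-1* RNAi. The 59 secreted genes summed to 18664 ± 1887 normalized reads with *cco-1* RNAi, 108691 ± 4419 with *his-3* RNAi and 138250 ± 1748 in EV (SD, n = 3 each), and the 26 receptors to 32097 ± 922, 55142 ± 1197 and 62293 ± 1524 in the same groups. The secreted sum with *cco-1* RNAi was 13.5% of EV and the receptor sum 51.5%, with 4.96% for *grl*, 18.7% for *wrt*, 23.4% for *grd*, 50.1% for *ptr* and 55.4% for *ptc*. Scaling to *act-1* and *pmp-3* gave 15.1% for the secreted genes and 57.8% for the receptors. With *his-3* RNAi the secreted sum was 78.6% of EV at TMM scaling, 91.5% by library size and 96.1% by *act-1* and *pmp-3*, while the receptor sum stood at 88.5% by TMM but above EV, at 103% and 108%, by the other scalings.

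Different secreted genes had the highest levels per kilobase of exon with *cco-1* RNAi and in EV. With *cco-1* RNAi *wrt-10* led with 3890 reads per kilobase, followed by *grd-3* (2830), *grd-5* (2018), *grd-10* (1988) and *grd-13* (1374), and *grl-16* stood at 314. With *his-3* RNAi *grl-16* (17179) led, followed by *grd-5* (14332), *grd-14* (8958) and *wrt-4* (6830). In EV these 4 genes stood in the same order, at 25047, 19148, 14195 and 10349 reads per kilobase. More than 1000 reads per kilobase were reached by 6 secreted genes with *cco-1* RNAi, 14 with *his-3* RNAi and 13 in EV. *wrt-10* alone took 23.5% of all secreted reads with *cco-1* RNAi, while *grl-16* took 26.6% with *his-3* RNAi and 30.4% in EV.

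Among the receptors, *ptr-4* (1292), *ptc-1* (1280) and *ptr-21* (1036 reads per kilobase) led with *cco-1* RNAi, and *ptr-18* stood at 93.7. In EV the leading receptors were *ptc-3* (2471), *ptr-18* (2305) and *ptr-4* (1608). The receptor genes have exons of 2594 to 5077 bases in all, with a median of 2996.5, and the secreted genes of 420 to 3853, with a median of 1031, so that at equal reads per kilobase a secreted gene was counted on fewer reads.

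With *his-3* RNAi the members moved less, and their direction depended on how the libraries were scaled. At TMM scaling 48 members were called (background 54.8%), 19 of them higher than in EV (background 26.9%) and 29 lower (background 27.9%), and 23 did not pass. Past a log2 fold change of 2 there were 1 higher member, *ptr-22* (background 3.23%), and 0 lower members (background 0.714%) by edgeR, limma-voom and DESeq2, also at an unadjusted p under 0.05, the lowest value by edgeR being −1.49. The groups did not overlap for 21 members above and 33 below EV, against 60.0% of all genes in either direction. The median log2 fold change was −0.09 for the secreted genes and −0.17 for the receptors, with 12 secreted genes and 7 receptors higher and 16 and 13 lower.

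Scaling by library size alone gave 27 members higher and 18 lower with *his-3* RNAi, where 8373 and 2457 of the 16817 genes tested were. Scaling to *act-1* and *pmp-3* gave 28 members higher and 13 lower, where 9450 and 1827 genes were. These scalings shifted the median of all genes by 0.22 and 0.29 on the log2 scale. Relative to the median of all genes, the secreted genes stood at −0.11 and the receptors at −0.19 under each of these scalings. Under all 4 scalings the 19 higher members were called, *grd-1*, *grd-3*, *grd-10*, *grd-13*, *grl-10*, *grl-14*, *grl-17*, *grl-21*, *wrt-1*, *wrt-2*, *wrt-3*, *wrt-10*, *ptc-1*, *ptr-8*, *ptr-9*, *ptr-10*, *ptr-13*, *ptr-22* and *ptr-25*. Of the lower members, 13 were called under all 4, *grd-14*, *grd-15*, *grl-16*, *grl-22*, *grl-27*, *grl-30*, *wrt-4*, *wrt-5*, *wrt-6*, *wrt-8*, *ptr-11*, *ptr-21* and *ptr-24*. Of the members described above, *grd-5* and *hog-1* lost their *his-3* call by *act-1* and *pmp-3* and *wrt-9* by both scalings, while *qua-1* and *ptr-4* were called higher by both and *grd-11* by *act-1* and *pmp-3*. With *cco-1* RNAi all 17 higher and 47 of the 48 lower members were called under all 4 scalings. Both comparisons share the 3 EV libraries.

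**Figure D4:**
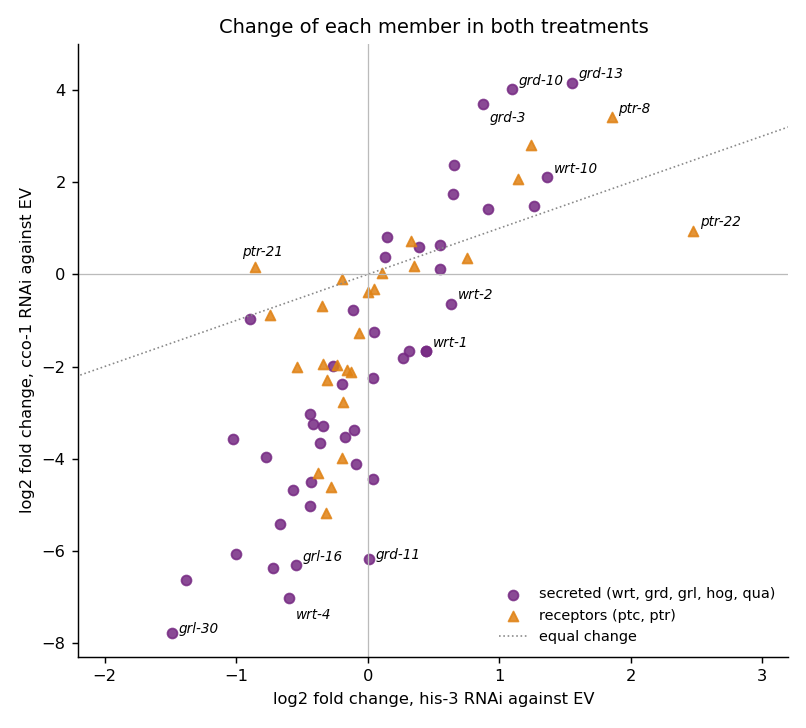
Log2 fold change of each tested member with *cco-1* RNAi (vertical axis) and with *his-3* RNAi (horizontal axis), each against the same 3 EV libraries, with circles for the secreted genes and triangles for the receptors. The vertical range, from −7.78 to 4.16, is wider than the horizontal one, from −1.49 to 2.48; the horizontal positions are at TMM scaling and shift by 0.22 or 0.29 with other scalings. *grl-30* is drawn at a fitted value that depends on the prior count.

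The direct test of *cco-1* RNAi against *his-3* RNAi did not use EV in its contrast. It called 62 members (background 68.6%), 13 higher (background 31.8%) and 49 lower (background 36.8%), and left 9 uncalled, and past a log2 fold change of 2 it called 3 higher (background 1.87%) and 31 lower (background 7.20%). The median was −2.19 for the secreted genes and −0.80 for the receptors. The 3 members higher by this margin were *grd-3*, *grd-10* and *grd-13*, at 2.82, 2.92 and 2.61. The furthest below were *wrt-4* (−6.43, SE 0.17), *grd-11* (−6.20, SE 0.27), *grl-16* (−5.77, SE 0.11), *wrt-8* (−5.66, SE 0.16), *grl-27* (−5.24, SE 0.25) and *ptr-16* (−4.86, SE 0.09), apart from *grl-30* and *grl-28*, which had 0 reads with *cco-1* RNAi. Without *cco-1* replicate 1 *grd-11* stood at −7.80 and led this order.

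At TMM scaling 4 of the 71 tested members were called lower with *cco-1* RNAi and higher with *his-3* RNAi, where 3.39% of all genes tested were. The reverse held for 1 member, *ptr-21*, and for 6.71% of all genes tested. *wrt-1* (−1.67 under *cco-1* RNAi and 0.45 under *his-3* RNAi), *wrt-2* (−0.64 and 0.63), *grd-1* (−1.82 and 0.27) and *grl-10* (−1.67 and 0.44) were lower than EV with *cco-1* RNAi and higher with *his-3* RNAi, under each of the 4 scalings. The direct difference between *cco-1* RNAi and *his-3* RNAi was −2.11, −1.27, −2.09 and −2.11 for these genes, with adjusted p between 1.56e-12 and 3.98e-08 for *wrt-1*, *wrt-2* and *grl-10* and 6.52e-15 for *grd-1*. *grl-10* and *grd-1* were named after their values were seen. *ptc-1* and *ptr-22* were above EV in both treatments and lower with *cco-1* RNAi than with *his-3* RNAi, by −0.18 (SE 0.04, adjusted p = 0.00118) and −1.53.

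Among the *cco-1* libraries the members had a larger median spread than all genes together. The limit was a mean of at least 50 normalized reads over all 9 libraries, which 59 members passed. Their median coefficient of variation was 10.6% with *cco-1* RNAi, 6.37% with *his-3* RNAi and 3.86% in EV. All genes past this limit had 4.53%, 6.35% and 4.14%. In the *cco-1* libraries *grd-11*, *grl-27* and *wrt-8* averaged 3.44, 5.67 and 8.20 reads, so their spread there rests on few reads. The members were not compared with genes of like level in those libraries. Secreted members reached a median of 16.1% with *cco-1* RNAi and receptors 4.86%. Above 25% lay 14 of the 59 members with *cco-1* RNAi, and 3.61% of 13515 genes, while 0 members did so with *his-3* RNAi or in EV. In 13 of these 14 members *cco-1* replicate 1 was the highest, replicate 3 in the middle and replicate 2 the lowest in normalized reads. The exception was *wrt-8*, and 213 of the 488 genes with such a spread had this order. For *grd-11* replicates 2 and 3 held 1 raw read each, so their order follows from the scaling. For *wrt-4* replicate 1 stood 2.85-fold above replicate 2, for *grl-5* 3.52-fold and for *wrt-1* 1.94-fold, each less than the distance to EV.

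**Figure D5:**
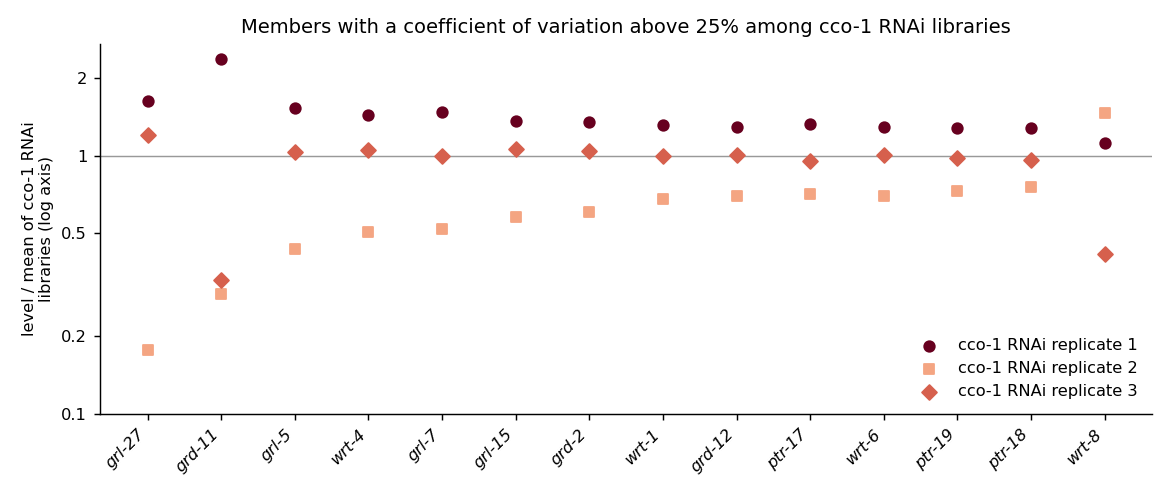
Level of 14 members in each *cco-1* RNAi library as a ratio to the mean of the 3 *cco-1* libraries (log axis), for members with a coefficient of variation above 25%. Replicate 1 is the highest and replicate 2 the lowest for all but *wrt-8*, and the distance between them reaches 9.22-fold for *grl-27*, where it rests on few reads.

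The members were placed unevenly in the genome. Chromosome V held 32 of the 85 members, 37.6%, and 28 of these 32 were secreted genes. It held 25 of the 71 tested members and 21.1% of all genes tested. Chromosome II held 8 of the 26 receptors. On chromosome IV 6 of 9 tested members were higher with *cco-1* RNAi, the 3 adjacent *grd* genes among them, and on chromosome V 3 of 25 were. Of all genes tested 34.9% were higher, a share that was not split by chromosome. *wrt-1* and *wrt-10* end 15 bases apart on opposite strands of chromosome II, between 7530996 and 7534563, and with *cco-1* RNAi they moved in opposite directions, by −1.67 and 2.11. These counts were made without a test. Exons of 28 members overlap a gene on the other strand, and the sources used here do not state whether the counting used strand, so reads from both strands may not be separated there.

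Other genes tied to Hedgehog signalling were followed as a list of 15, all tested. Under *cco-1* RNAi 4 were called higher (background 34.9%) and 9 lower (background 35.9%). Under *his-3* RNAi 3 were called higher (background 26.9%) and 6 lower (background 27.9%) at TMM scaling, and the direct test called 2 higher (background 31.8%) and 7 lower (background 36.8%) with *cco-1* than with *his-3* RNAi. In these last comparisons 9 of the 15 were called in either direction, near the 54.8% and 68.6% of all genes. The median log2 fold change of the list was −0.31 with *cco-1* RNAi. The largest decrease was in *phg-1*, which resembles the vertebrate co-receptor GAS1, with 236 reads on average with *cco-1* RNAi, 1862 with *his-3* RNAi and 2049 in EV (−3.12, adjusted p = 5.8e-15). *che-14*, which resembles Dispatched, the fly exporter of Hedgehog, averaged 321, 1190 and 1250 reads in these groups (−1.96 with *cco-1* RNAi), and *hhat-1*, named for the acyltransferase that modifies Hedgehog in flies and mammals, 553, 1781 and 1989 (−1.85). *daf-6*, a Patched-related gene that shapes glial channels, also fell (−1.62 with *cco-1* RNAi).

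The glypicans, proteoglycans that bind Hedgehog in flies, did not move together. *gpn-1* averaged 288 reads with *cco-1* RNAi, 102 with *his-3* RNAi and 56.8 in EV and rose by 2.32 with *cco-1* RNAi, whereas *lon-2* was at −0.34. *hhat-2* rose by 0.67 and *scp-1*, which resembles the sterol sensor SCAP, by 0.49. The NPC1-like sterol transporters *ncr-1* and *ncr-2* stood at 0.18 and −0.76, and *tra-1*, the worm member of the GLI family that acts in sex determination, at −0.53, each called with *cco-1* RNAi. *gsk-3* and *ptd-2* were not called in any comparison.

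Since many of the members are known to follow the molting cycle in larvae, 20 regulators and components of molting and the epidermis were followed too, all tested. Under *cco-1* RNAi 9 were called higher (background 34.9%) and 10 lower (background 35.9%), with a list median of 0.005. Under *his-3* RNAi 10 were called higher (background 26.9%) and 3 lower (background 27.9%) at TMM scaling. *fbn-1*, a fibrillin-like matrix gene, averaged 15504 reads with *cco-1* RNAi, 3090 with *his-3* RNAi and 637 in EV, with changes of 4.61 and 2.28. *let-653*, a component of the early cuticle matrix, rose by 3.05 and 1.45, *noah-1* by 1.39 and 0.93, and *dpy-7*, a furrow collagen, by 1.38 and 0.98. *bed-3*, a molting factor, averaged 118.6 reads with *cco-1* RNAi, 2924 with *his-3* RNAi and 3605 in EV and fell by 4.92 with *cco-1* RNAi. In the same comparison *mlt-10* fell by 3.86, *nas-36*, a protease of ecdysis, by 3.60 and *mlt-8* by 2.31. *nhr-23*, a receptor that drives the larval molting program, rose by 0.67 under *cco-1* RNAi and 0.24 under *his-3* RNAi. These genes are known to peak at different times of the cycle. The stage of the sequenced worms was not measured here, so the part of stage in the results on the members was not tested.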

How the data were processed

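The authors sequenced stranded poly(A) libraries, aligned the reads with STAR 2.5.3a and counted reads per gene with HTSeq. The deposited table holds these raw counts for 46739 genes, and its 5 summary lines, 7.47 to 8.34% of all reads in the table, were left out. Symbols and positions came from the WBcel235 annotation. Genes for which over 3 libraries held over 5 reads were tested with edgeR 4.0.16 (R 4.3.3), with TMM scaling, a model with a mean for each of 3 groups over all 9 libraries, the quasi-likelihood F test, a prior count of 0.125 and Benjamini-Hochberg adjustment over 16817 genes. The study names limma, which was run as an alternative (limma 3.58.1), as was DESeq2 1.42.0. The biological coefficient of variation was 4.92%. Standard errors are the log2 fold change divided by the square root of F. Libraries of a group differed by more than counting noise, so none was counted as a duplicate. The procedure was tested on simulated counts.

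Values per library are given for all *wrt*, *hog*, *qua* and *ptc* genes, for the 6 secreted and 4 *ptr* genes with the largest called change per comparison (mean of at least 50 reads) and for the 2 *grd*, *grl* and *ptr* genes with the most reads. The members and lists were chosen with earlier results of these data known. Alternatives were other scalings, filters, tests, fold change limits and prior counts, fits of only the groups compared, a replicate block and leaving out each library.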

Additional observations from a re-analysis of the deposited data

How the results depend on the processing

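Limits on the fold change moved the counts of calls in all 3 comparisons, and the scaling of the libraries moved the lower calls with *his-3* RNAi. With a log2 fold change of at least 1 as an added limit, 11 members were higher with *cco-1* RNAi and 11 were called with *his-3* RNAi, 8 of them higher and 3 lower, and 8 were higher with *cco-1* than with *his-3* RNAi. With a limit of 2, 40 members were called with *cco-1* RNAi, 8 of them higher, 1 was called with *his-3* RNAi (1 higher and 0 lower), and 34 were called between the treatments, 3 higher and 31 lower. The pathway list then kept 5 and 2 calls under *cco-1* RNAi, 0 and 0 under *his-3* RNAi, and 5 and 1 between the treatments at limits of 1 and 2. The molting list kept 6 calls with *cco-1* RNAi at a limit of 2, 3 and 1 with *his-3* RNAi, and 8 and 4 between the treatments. The share of all genes past a limit of 1 was not counted, so the counts at that limit have no background. Past a limit of 2, 4.31% of all genes were higher and 6.61% lower with *cco-1* RNAi. These shares were 3.23% and 0.714% with *his-3* RNAi and 1.87% and 7.20% between the treatments.

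With *his-3* RNAi, 18 members were lower by library size alone and 13 by *act-1* and *pmp-3*, where 2457 and 1827 of the 16817 genes tested were. The median log2 fold change was then 0.13 and 0.20 for the secreted genes and 0.050 and 0.12 for the receptors, and the receptors stood at −0.20 with DESeq2 or its size factors in edgeR and at −0.18 without a filter. By library size and by *act-1* and *pmp-3*, the receptor median was −0.68 and −0.61 with *cco-1* RNAi and −0.92 and −0.92 between the treatments. Without a filter on low counts the secreted median was −1.67 with *cco-1* RNAi and −1.74 between the treatments, since genes with few reads entered. With *his-3* RNAi, *grd-11* turned to −0.017 with DESeq2's size factors, −0.018 with DESeq2 and −0.0020 without a filter, *grl-7* to 0.13 and 0.20 and *ptr-6* to 0.028 and 0.10 by library size and by *act-1* and *pmp-3*, and *ptc-3* to 0.052 and *ptr-18* to 0.015 by *act-1* and *pmp-3*. DESeq2 called 41 members with *his-3* RNAi, 16 higher and 25 lower, where 3626 and 4630 of 16817 genes were. Among the genes given per library by the rule above, *wrt-1*, *wrt-4* and *ptr-18* lost their *his-3* call with DESeq2.

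Leaving out each library in turn kept 62 to 65 members called with *cco-1* RNAi, 44 to 48 with *his-3* RNAi and 61 to 63 between the treatments. The secreted median lay between −2.43 and −2.13 under *cco-1* RNAi, −0.10 and −0.03 under *his-3* RNAi and −2.37 and −2.04 between the treatments, and the receptor median between −0.81 and −0.76, −0.20 and −0.14, and −0.89 and −0.77. With *his-3* RNAi, leaving out a library moved *grd-11* between −0.094 (without *his-3* replicate 2) and 0.082 (without *his-3* replicate 1), and it was also below 0 without EV replicate 3. *qua-1* moved between −0.0090 (without EV replicate 1) and 0.075 (without *his-3* replicate 1). None of these values was called. Same-numbered libraries did not deviate together, with correlations between −0.04 and 0.05, so the numbers do not pair them. With the replicate block 64 members were called with *cco-1* RNAi, 47 with *his-3* RNAi and 62 between the treatments.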
